A study of Mus musculus with 550 samples.

Results

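The 9 genes described here are known from trophoblast, the outer lineage of the early embryo, and from simple epithelium: the transcription factors Cdx2, Tfap2c, Elf5 and Elf3, the keratins Krt8, Krt18, Krt19 and Krt42, and the gap junction connexin Gjb5. They are 9 of the 55228 gene names in the count table and were picked by symbol with earlier results of these cells known, their levels by genotype at day 9 among them, so that every level, share and ratio below is a description without a test. Single cells came from embryoid bodies (EBs), floating clumps of embryonic stem cells (ESCs) that differentiate once Leukemia Inhibitory Factor is withdrawn. The ESCs were E14, of strain 129/Ola, and were wild type (WT), Dnmt3a -/- (3AKO) or Dnmt3b -/- (3BKO), each sampled at day 3 and at day 9. EBs were pooled before sorting, and the labels do not tell the knockout clones apart, so each genotype and day was handled as 1 sample.

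Trophoblast identity is set by a small network of transcription factors in which Cdx2, Eomes and Elf5 sustain the stem cells of the lineage, with Tfap2c and Gata3 acting beside them. Elf5 is known as a gene whose promoter is methylated in ESCs and unmethylated in trophoblast, and Dnmt3a and Dnmt3b encode the enzymes that lay down new DNA methylation. Krt8, Krt18 and Krt19 are the keratins of simple epithelia, where a type II keratin (Krt8) pairs with a type I keratin (Krt18 or Krt19). Elf3 is an ETS factor of epithelial cells, Krt42 a further type I keratin, and Gjb5 a connexin of placenta and epidermis. Tfap2c is also known from naive ESCs and from primordial germ cells.

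Since both knockouts remove an enzyme that methylates CG dinucleotides, the sequence upstream of the start site is shown for Elf3, Gjb5, Krt42 and Krt18. Their levels differed between genotypes, and RefSeq (GRCm38.p6) gave a promoter window for each. Krt8 also differed and had a window, but is not shown. Windows were found for 7 members, and Tfap2c and Krt19 had none. The stretches run 5′ to 3′ on the strand of the gene. Each ends at the RefSeq start or before the first base that GENCODE vM21 counts as exon, whichever comes first. For Krt42 the RefSeq start comes first, and the GENCODE gene begins further downstream, at chr11:100269871. Capitals mark each CG, which reads the same on both strands. Elf3 is shown at chr1:135258569-135258722 (minus strand), Gjb5 at chr4:127358182-127358414 (minus strand), Krt42 at chr11:100269952-100270201 (minus strand) and Krt18 at chr15:102027966-102028179 (plus strand).
Elf3: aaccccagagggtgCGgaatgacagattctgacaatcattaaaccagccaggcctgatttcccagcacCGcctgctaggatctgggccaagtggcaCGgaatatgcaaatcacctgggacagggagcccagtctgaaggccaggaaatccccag
Gjb5: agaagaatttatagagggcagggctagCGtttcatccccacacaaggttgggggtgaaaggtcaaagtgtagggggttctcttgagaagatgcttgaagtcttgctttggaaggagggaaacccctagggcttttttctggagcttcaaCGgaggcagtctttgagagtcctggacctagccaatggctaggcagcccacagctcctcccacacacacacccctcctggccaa
Krt42: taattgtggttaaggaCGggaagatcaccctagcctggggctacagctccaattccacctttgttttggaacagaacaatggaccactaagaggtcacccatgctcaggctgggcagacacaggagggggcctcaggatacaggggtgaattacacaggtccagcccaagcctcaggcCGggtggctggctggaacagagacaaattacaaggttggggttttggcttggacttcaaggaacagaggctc
Krt18: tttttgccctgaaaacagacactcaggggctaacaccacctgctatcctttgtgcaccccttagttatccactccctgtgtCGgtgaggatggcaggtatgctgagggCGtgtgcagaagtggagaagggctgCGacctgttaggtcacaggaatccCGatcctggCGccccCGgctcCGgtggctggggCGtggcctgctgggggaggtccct

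Over the whole 250 bases before the start, Krt42 held 2 CG and Gjb5 held 3, against a median of 6 over 32851 windows of that length. At least 2 CG were found in 81.2% of all windows and at least 3 in 71%. Elf3 held 8 (43% of windows had as many), Krt18 held 12 (33.5%) and Cdx2 held 13 (31.5%). Krt8 held 3, and the windows of Elf5 held 2 and 8. Methylation was not measured in these cells.

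Of 550 cells, 486 passed the filter of at least 50000 assigned reads, at least 2000 detected genes and at most 50% mitochondrial reads. The kept cells had a median of 263902 reads, and the summed depth of a group was between 19713905 and 34821361 reads. Cells came in 2 library batches, which hold different columns of each plate. At day 9 each genotype filled 1 plate, so genotype and plate cannot be told apart there. Dnmt3a was at 25.2 CPM (counts of a gene scaled to the summed reads of the group) in 3AKO and 166 CPM in WT at day 9, and Dnmt3b was at 16.4 CPM in 3BKO and 167 CPM in WT, as their labels say. At day 3 the batch 2 cells labelled 3AKO held Dnmt3a at 335 CPM and those labelled 3BKO at 12.8 CPM, the opposite of their labels. Day 3 mutant levels are therefore given by label and batch. Where a share of reads or a count of cells at day 3 pools both batches, it goes by label and may mix the knockouts. Intervals are exact Poisson intervals of the summed reads and exact binomial (Clopper-Pearson) intervals of shares of cells, at 95% and reflect counting error alone, the libraries having no molecular identifiers.

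Of the factors named above for trophoblast stem cells, Cdx2 and Elf5 were absent or nearly so, while Eomes, which is no member and is also known from the primitive streak, had reads in every genotype. No cell is called trophoblast here. Cdx2 (chr5:147300805-147307270) was listed at 0 in all 486 kept cells, which allows up to 0.617% of cells with a read and up to 0.0198 CPM, both as the limit of 3 counts. Elf5 (chr2:103411688-103450989) had 10 reads in all, in 2 cells, both 3BKO at day 9, and 1 of these cells held 7 of the reads. Its level there was 0.330 CPM (0.158 to 0.607), and it was at 0 in the other 5 groups.

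Tfap2c (chr2:172549593-172558622), the AP-2 gamma factor, was at 42.2 CPM (40.1 to 44.5) in WT, 37.5 (35.1 to 40.1) in 3AKO, compared with 92.6 (89.2 to 96.1) for 3BKO at day 9. Batch 1 and batch 2 gave 51.7 and 24.1 CPM for WT, 52.8 and 16 for 3AKO, and 116 and 72.2 for 3BKO. Both 3BKO values thus lay above all 4 values of the other genotypes, while WT and 3AKO overlapped. As a log2 ratio of CPM + 1, 3BKO stood 1.11 above WT (1.15 in batch 1 and 1.55 in batch 2), and 3AKO stood at -0.17 (0.03 and -0.57). With every cell thinned to 50000 reads, a Tfap2c read was found in 22.5% of WT cells, 31.8% of 3AKO cells but 52.2% of 3BKO cells, and the 3BKO share exceeded that of WT by 29.8 percentage points (13.7 to 44.6).

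Elf3 (chr1:135253575-135258568) was found in most 3BKO cells at day 9. Its day 9 level was 72.5 CPM (69.7 to 75.3) in WT, 119 (114 to 123) in 3AKO, compared with 345 (338 to 351) for 3BKO. By batch it was 91.5 and 36.1 CPM in WT, 159 and 62.2 in 3AKO, and 485 and 223 in 3BKO. Every 3BKO value lay above every other, and batch 1 lay above batch 2 in each genotype. The log2 ratio of 3BKO to WT was 2.23 (2.39 and 2.60 by batch) and that of 3AKO to WT 0.70 (0.79 and 0.77). In single 3BKO cells Elf3 ran from 0 to 1279 CPM, and at equal depth 92.5% of them (83.4 to 97.5) had a read, against 41.6% of WT (31.2 to 52.5) and 56.8% of 3AKO cells (45.8 to 67.3). Exon bases of Elf3 also lie in the antisense gene Gm26642, and the sources do not say if counting used strand, so reads of the pair cannot be told apart.

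**Figure D1:**
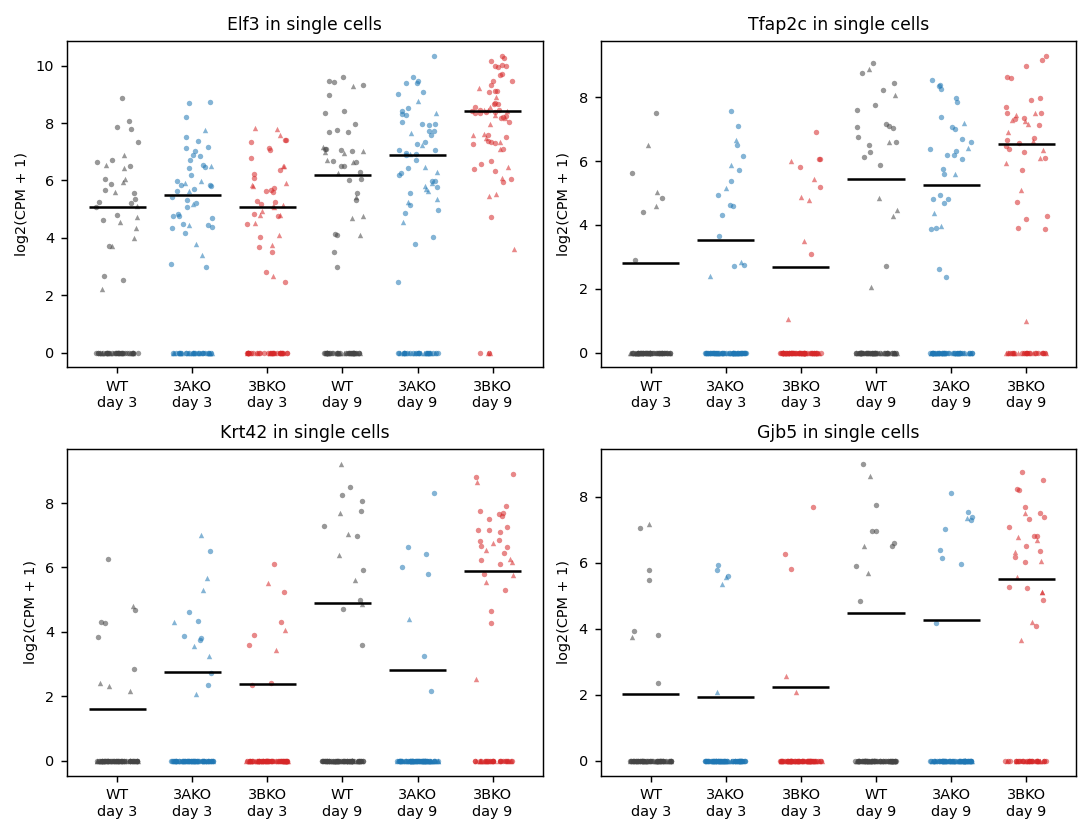
Each point is 1 kept cell, as log2(CPM + 1) on the vertical axis, for Elf3, Tfap2c, Krt42 and Gjb5 in the 6 groups on the horizontal axis; circles are batch 1 and triangles batch 2, and the black bar is the level of the summed reads of the group (at day 3 the mutant batch 2 labels are in doubt). In 3BKO at day 9 few Elf3 values sit at 0, while for the other genes most cells of most groups do.

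Krt42 (chr11:100262882-100269871) differed in opposite directions in the 2 knockouts. It was at 28.5 CPM (26.8 to 30.3) in WT, 5.99 (5.05 to 7.06) in 3AKO, compared with 58.6 (55.9 to 61.4) for 3BKO at day 9, with batch values of 29.9 and 25.9, 9.82 and 0.606, and 83.5 and 37.2 CPM. None of these ranges overlapped. The log2 ratio was -2.08 for 3AKO against WT (-1.51 and -4.07 by batch) and 1.01 for 3BKO against WT (1.45 and 0.50). The batch 2 value of 3AKO rests on 1 cell with a read, out of 27. At equal depth a Krt42 read was found in 18% of WT cells, 6.82% of 3AKO cells but 44.8% of 3BKO cells, with a difference to WT of -11.2 points (-21.6 to -0.714) for 3AKO and 26.8 points (11.3 to 41.4) for 3BKO.

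Gjb5 (chr4:127354809-127358181) was at 21.4 CPM (19.9 to 22.96) in WT, 18.2 (16.5 to 19.99) in 3AKO, compared with 44.7 (42.3 to 47.1) for 3BKO at day 9. Its batch values were 23.8 and 16.6 CPM in WT, 23.4 and 10.8 in 3AKO, and 67.4 and 25.05 in 3BKO, so that the lower 3BKO batch lay just above the higher WT batch, with overlapping counting intervals. The log2 ratio of 3BKO to WT was 1.03 (1.46 and 0.56). In WT 1 cell held 38.4% of the reads, and 13.4 CPM remained without it. A read was found in 11.2% of WT cells, 10.2% of 3AKO cells but 38.8% of 3BKO cells at equal depth, and the interval of the difference between 3AKO and WT ran from -11.1 to 9.07 points.

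For Tfap2c, Krt42 and Gjb5, the share of cells with a read differed more between 3BKO and WT than the level in those cells. Among cells with a read, the median CPM was 119 in WT and 112 in 3BKO for Tfap2c, 128 and 108 for Krt42, and 96.6 and 90.1 for Gjb5. Elf3 differed in both measures, with a median of 114 CPM in WT, 122 in 3AKO, compared with 324 for 3BKO cells that had a read.

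**Figure D2:**
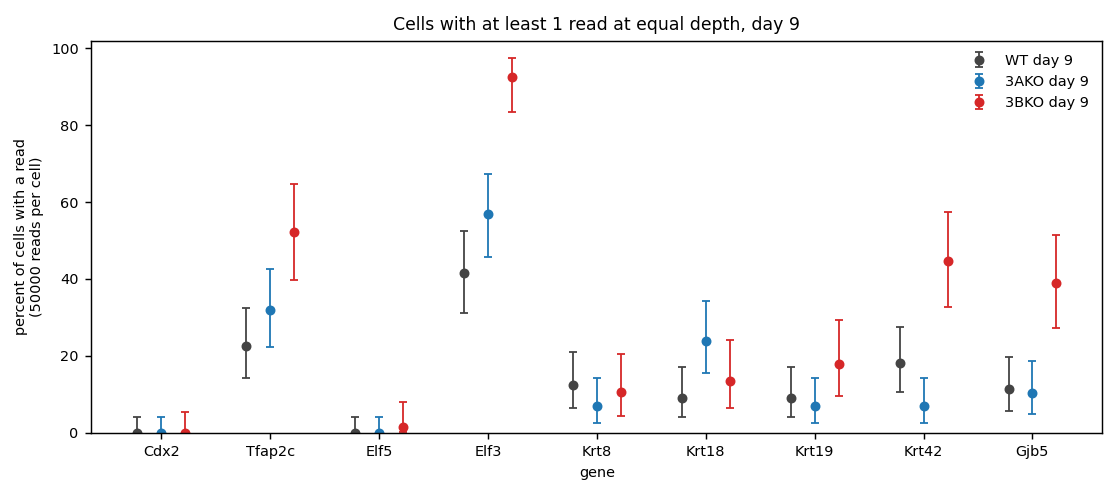
Percent of kept day 9 cells with at least 1 read of each gene, on the vertical axis, after thinning every cell to 50000 reads; points are WT (grey, 89 cells), 3AKO (blue, 88) and 3BKO (red, 67), with exact 95% binomial intervals. The 3BKO points for Elf3 (92.5%), Tfap2c (52.2%), Krt42 (44.8%) and Gjb5 (38.8%) lie above both other genotypes, those for Krt8 and Krt18 do not, and Cdx2 is at 0.

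The keratin pair of simple epithelium behaved differently. Krt8 (chr15:101996698-102004482) was low throughout, at 8.53 CPM (7.59 to 9.56) in WT, 12.5 (11.2 to 14) in 3AKO, compared with 2.48 (1.95 to 3.10) for 3BKO at day 9. Batch values were 11 and 3.85, 15.6 and 8.18, and 3.06 and 1.97 CPM. The 3BKO values lay below the others, but a read was found in only 12 of 89 WT cells, 8 of 88 3AKO cells and 7 of 67 3BKO cells, and the interval of the 3BKO share less the WT share, at equal depth, ran from -12.5 to 9.68 points. Exon bases of Krt8 are shared with Gm36026 on the opposite strand, and stretches of at least 75 bases match the processed pseudogene Krt8-ps at 95% identity or more. Multi-mapped reads were left out by the authors.

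Krt18 (chr15:102028180-102032027), the type I partner of Krt8, was at 6.98 CPM (6.13 to 7.91) in WT, 45.7 (43.1 to 48.5) in 3AKO, compared with 9.97 (8.88 to 11.2) for 3BKO at day 9. The batches gave 6.25 and 8.37 CPM in WT, 64.5 and 19.3 in 3AKO, and 12.6 and 7.69 in 3BKO. Both 3AKO values lay above the rest, with a log2 ratio to WT of 2.55 (3.17 and 1.11). A single 3AKO cell held 501 of the 1091 reads (45.9%), and 25.0 CPM remained without it. At equal depth 23.9% of 3AKO cells had a Krt18 read against 8.99% of WT, a difference of 14.9 points (3.27 to 26.3). In 3BKO the share was 13.4%.

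Krt19 (chr11:100140810-100148665) was at 69.2 CPM (66.5 to 72.1) in WT, 14.7 (13.2 to 16.3) in 3AKO, compared with 30.6 (28.6 to 32.6) for 3BKO at day 9, an order that 1 cell set. This WT cell of batch 1 held 2223 of the 2411 reads (92.2%), and 5.47 CPM remained in WT without it. Without the top cell of each group the levels were 7.74 CPM in 3AKO and 24.5 CPM in 3BKO, which puts WT below both knockouts. By batch, WT was at 103 and 5.10 CPM, 3AKO at 12.9 and 17.2, and 3BKO at 52.1 and 12, so the direction between genotypes turned from batch to batch. The share of cells with a read at equal depth was 8.99% in WT, 6.82% in 3AKO and 17.9% in 3BKO, and the 3BKO share less the WT share had an interval of -2.57 to 21.3 points.

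**Figure D3:**
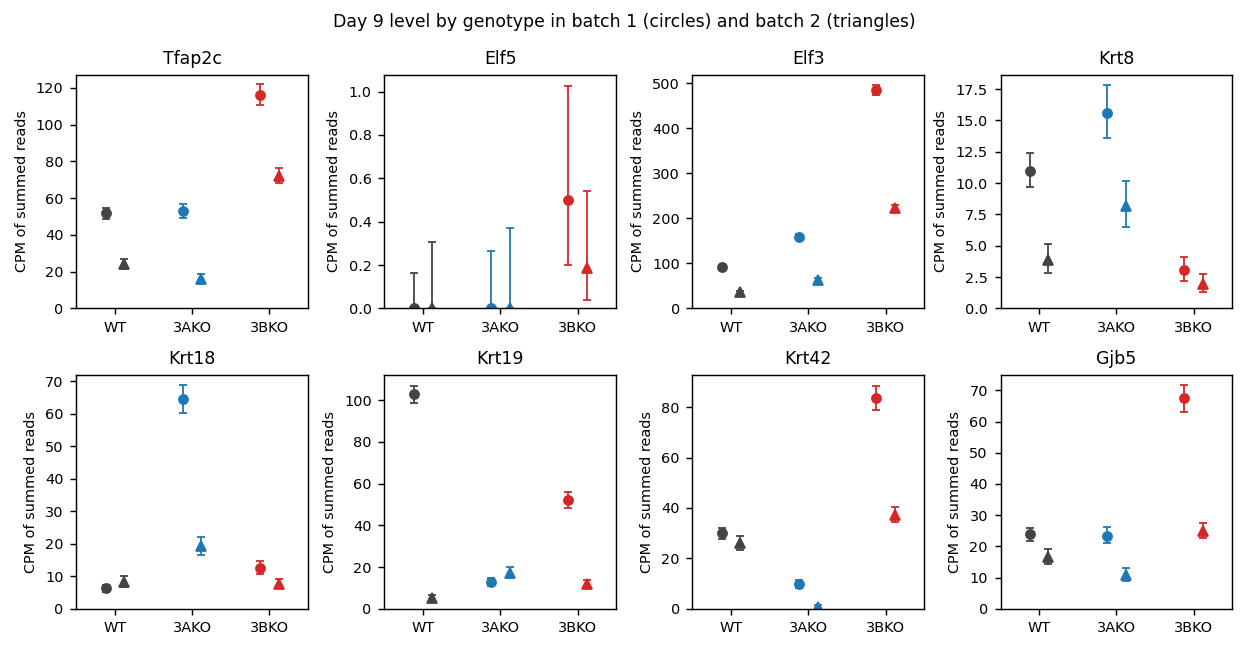
Level of each gene at day 9 as CPM of summed reads (vertical axis, from 0, with its own scale for each gene) in WT, 3AKO and 3BKO (horizontal axis), for batch 1 (circles) and batch 2 (triangles), with exact 95% Poisson intervals; Cdx2 is left out, being at 0. The red 3BKO points lie highest for Tfap2c, Elf3, Krt42 and Gjb5 and lowest for Krt8, the blue 3AKO points highest for Krt18, and the WT batches of Krt19 lie far apart (103 and 5.10 CPM).

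A member was counted as higher or lower where its log2 ratio was at least 1 in size, with 1 sign, in both batches, among genes at 1 CPM or more in either group; 7 members could be counted in each contrast, Cdx2 and Elf5 being below 1 CPM throughout. In 3BKO against WT at day 9, 2 of 7 were higher (Elf3 and Tfap2c), where 4.71% of 15170 genes were, and 0 of 7 were lower, where 6.84% were. Krt42 and Gjb5 passed this size in batch 1 only. The Tfap2c call was lost with the mean of single-cell CPM (1.01 and 0.93 by batch) and with thinned cells (0.96 and 0.90). In 3AKO against WT, 1 of 7 was higher (Krt18; 2.72% of 14999 genes) and 1 of 7 lower (Krt42; 3.03%). The Krt18 call was lost with the mean of single-cell CPM (3.00 and 0.78), with thinned cells (2.68 and 0.28) and with a pseudocount of 10 (2.20 and 0.67). Between the knockouts, 3BKO was higher for 4 of 7 (Elf3, Tfap2c, Krt42 and Gjb5; 5.74% of 15185 genes) and lower for 2 of 7 (Krt8 and Krt18; 7.26%). Both lower calls were lost with thinned cells and with a pseudocount of 10, where Tfap2c and Gjb5 respectively were lost among the higher ones. From day 3 to day 9 in WT, 4 of 7 were higher (Tfap2c, Krt19, Krt42 and Gjb5; 6.67% of 14626 genes) and 0 of 7 lower (2.48%). Since members were picked with such values known, nothing is read from these counts. The median log2 ratio of the 7 members was 1.01 in 3BKO against WT and -0.17 in 3AKO against WT, where the median of all counted genes was -0.08 and -0.09.

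In WT, Elf3, Tfap2c, Krt42 and Gjb5 had higher levels at day 9 than at day 3 in both batches, and Krt8 lower ones. Elf3 was at 32.8 CPM (30.3 to 35.4) at day 3 and 72.5 at day 9, although a read was found in 38% and 41.6% of cells at equal depth, a difference whose interval ran from -12 to 18.9 points. Tfap2c was at 5.99 CPM at day 3 (42.2 at day 9), Krt42 at 2.03 (28.5) and Gjb5 at 3.09 (21.4). Krt8 was at 16.9 CPM (15.2 to 18.9) at day 3, its highest level in any group, with a read in 28 of 79 cells, and at 8.53 CPM at day 9. Krt18 was at 8.22 CPM (7.001 to 9.58) and 6.98 CPM (6.13 to 7.91), with batches that went opposite ways (log2 ratios of -0.86 and 1.24). Across all genes the median log2 ratio of day 9 to day 3 was 0.25 in WT, and other size factors moved all log2 ratios of this contrast by -0.17 (TMM) or -0.20 (DESeq2), and those of 3BKO against WT by 0.11 (DESeq2).

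At day 3 the level of a member differed between the labelled genotypes by gene and batch. Krt8 in batch 1 was at 23.8 CPM in WT, against 1.64 for 3AKO and 9.95 for 3BKO. There 1 cell held 79.2% of the 3BKO reads and 1 cell 39.9% of the WT reads. Without its top cell 3BKO was at 2.12 CPM, WT at 14.8 and 3AKO at 1.11. In batch 1, Elf3 was at 43.3 CPM in WT, 58.5 in 3AKO, compared with 28.8 for 3BKO, and Tfap2c at 4.53, 12.2 and 5.72 CPM. In batch 2, where the Dnmt3a level went against both mutant labels, Elf3 was at 18.8 CPM in WT, 20.1 in the cells labelled 3AKO and 37.9 in those labelled 3BKO. Krt42 was at 1.30 CPM in WT, 9.17 in the cells labelled 3AKO and 4.97 in those labelled 3BKO of the same batch. Of the Krt42 reads in these cells labelled 3BKO, 1 cell held 85.7%, and 0.784 CPM remained without it. Gjb5 was between 0.507 and 6.39 CPM in all day 3 groups and batches, and Krt19 between 0 and 1.25 CPM.

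Levels of different genes can be compared only per length, here as CPM per kilobase of exon. In WT at day 9 the order was Krt19 (37.3), Elf3 (32.7), Krt42 (16.2), Gjb5 (12.4), Tfap2c (11.5), Krt18 (4.86), Krt8 (4.36) and Cdx2 and Elf5 at 0. The first place of Krt19 rests on the 1 cell described above. In 3BKO Elf3 led with 155 CPM per kilobase, followed by Krt42 (33.2), Gjb5 (26), Tfap2c (25.2), Krt19 (16.5), Krt18 (6.94) and Krt8 (1.26). By batch, few neighbours in these orders were apart. In WT the batch ranges did not overlap between Krt42 and Gjb5 and between Tfap2c and Krt18, and in 3BKO between Elf3 and Krt42 and between Krt18 and Krt8. The ranges of all other neighbours with reads overlapped in these genotypes.

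Several levels were carried by a single cell, defined as 1 cell with at least 50% of the reads of a gene in its group. This held for 6 of the 43 combinations of gene and group that had a read: Krt19 in WT at day 9 (92.2%), Elf5 in 3BKO at day 9 (7 of 10 reads), Krt19 in the day 3 cells labelled 3AKO (93.8% of 16 reads) and 3BKO (77.8% of 9), and Krt8 (63.8%) and Gjb5 (61%) in the day 3 cells labelled 3BKO. Just under the limit were Krt19 (48.6%), Krt8 (47.8%) and Krt18 (45.9%) in 3AKO at day 9, and Krt42 in the day 3 cells labelled 3BKO (45.7%). The day 3 mutant shares here pool both batches by label, so they may mix the knockouts. At the other end, the top cell held 5.94% of the Elf3 reads and 8.63% of the Tfap2c reads in 3BKO at day 9. Within batches the cells are fewer, and at day 9 a single cell carried the gene in 5 of 22 combinations in batch 1 and 13 of 22 in batch 2, so many batch 2 values rest on 1 cell. In batch 2 these were Tfap2c (58.7% of the reads in 1 cell), Krt8 (65.2%), Krt18 (78%), Krt19 (77.05%) and Gjb5 (85.4%) in WT, Tfap2c (59.5%), Krt8 (82.7%), Krt19, Krt42 and Gjb5 (all reads of each) in 3AKO, and Krt8 (59.4%), Krt18 (52%) and Elf5 (all reads) in 3BKO. Without that cell Tfap2c in batch 2 was at 10.5 CPM in WT and 6.92 CPM in 3AKO. In batch 1 they were Krt19 (94.6%) and Gjb5 (52.5%) in WT, Krt8 (65.6%) and Krt18 (55.7%) in 3AKO and Elf5 (all reads) in 3BKO. Krt18 in 3AKO was at 29.1 CPM in batch 1 without that cell.

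**Figure D4:**
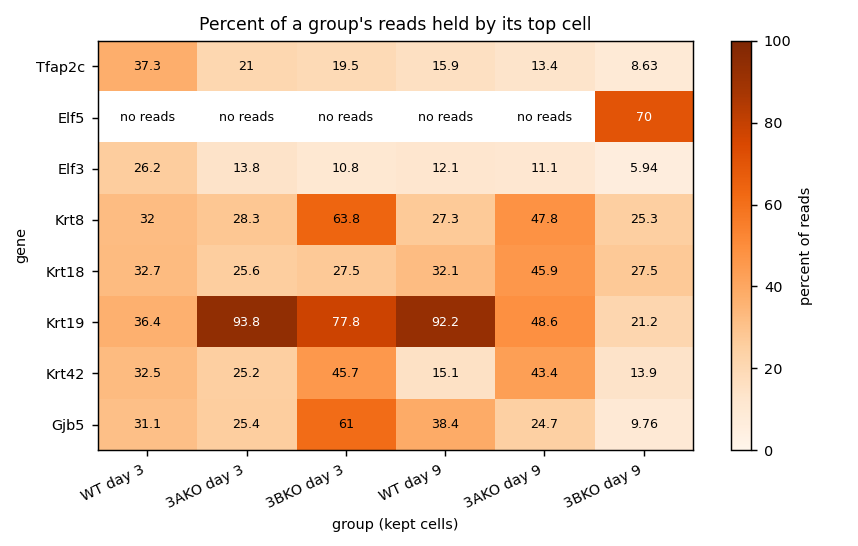
Percent of the reads of a gene (rows) in a group (columns) that came from its top cell, from 0 (white) to 100 (dark orange), with the value printed in each field; fields without a read are marked. The dark fields are Krt19 in WT at day 9 (92.2) and in both day 3 mutant labels (93.8 and 77.8), and the lightest is Elf3 in 3BKO at day 9 (5.94).

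The cells that carried the simple keratins were not alike. The WT day 9 cell with 2223 Krt19 reads had 0 reads of the other 8 members and 0 of the 8 epiblast list genes at 5 reads, but held Sparc (953 reads), Sox17 (307) and Gata4 (113), which are known from endoderm. The 3AKO day 9 cell with the most Krt8 (143 reads) and Krt18 (501) also had 83 reads of Krt19. It had at least 5 reads in 17 of 22 listed endoderm genes, led by the matrix genes Sparc (10182), Lamb1 (717) and Lama1 (593) and the endocytic adaptor Dab2 (709), and in 12 of 23 listed epithelial genes, led by the claudin Cldn6 (1158). A further 3AKO cell with Krt19 (170) and Krt8 (67) held Foxa2 (383), Mixl1 (383) and T (283), which are known from the primitive streak and its derivatives. The day 3 cell with the most Krt8 in the group labelled 3BKO (95 reads, batch 1) held Mixl1 (167), Gata4 (80) and Gata6 (79). In WT at day 3 the cell with the most Krt8 (107 of 334 reads) had 18 of the 22 endoderm genes at 5 reads.

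Summed over the endoderm list, the level at day 9 was 759 CPM in WT, 911 in 3AKO, compared with 343 for 3BKO, with a read in 19, 19 and 18 of its 22 genes and Afp at 0. Sparc held most of it, at 395, 609 and 232 CPM, and the laminin Lamc1 was at 46.3, 42.9 and 40.4 CPM. The 3AKO cell with the most Krt18 held 69.9% of the reads of the list in its group, and a WT cell of batch 2 held 52.4%. Without the top cell of each group the sums were 365 CPM for WT, 277 for 3AKO and 321 for 3BKO, so the order of the genotypes rests on these cells, which were left out after their values were seen. Sparc in 3AKO against WT also turned between batches (log2 ratios of 1.69 and -2.70). For 3BKO against WT, 3 of 17 counted endoderm genes were lower (Gata4, Sox17 and Plat; 6.84% of all counted genes were) and 0 higher. For 3AKO against WT, 2 of 19 were higher (Foxa2 and Amn) and 1 lower (Gata4), where 2.72% and 3.03% of all counted genes were. Foxa2 had 468 reads in 3 cells of 3AKO, most of them in the cell with Foxa2, Mixl1 and T described above. Whether the cells with endoderm genes account for the keratin levels was not tested.

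Several members in 1 cell were found mostly in 3BKO, where Elf3, Tfap2c, Krt42 and Gjb5 were each found in a larger share of cells. Higher counts per cell would follow from these larger shares. Whether members met in 1 cell more often than the shares give was not tested. At least 3 of the 9 genes had 5 or more reads in 36 of 67 3BKO cells (53.7%, 41.1 to 66), against 16 of 89 WT (18%, 10.6 to 27.5) and 15 of 88 3AKO cells (17%, 9.87 to 26.6). At equal depth, with 1 read as the limit, the counts were 33, 14 and 15 cells. At least 5 genes reached 5 reads in 5 cells, all 3BKO, while 0 of 89 WT cells and 0 of 88 3AKO cells did, which allows up to 3.37% and 3.41% by the same limit of 3 counts. Depth differed too, with a median of 336187 reads per 3BKO cell, 363652 per WT cell and 237448 per 3AKO cell.

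**Figure D5:**
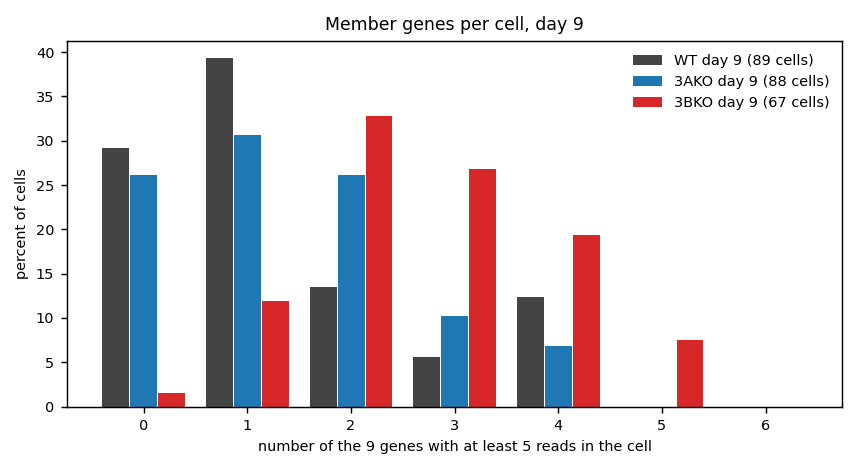
Percent of kept day 9 cells (vertical axis, from 0) by the number of the 9 genes with at least 5 reads in the cell (horizontal axis), for WT (grey), 3AKO (blue) and 3BKO (red). Most WT and 3AKO cells hold 0 or 1 of the genes, most 3BKO cells 2 or more, and the 5 cells with 5 genes are 3BKO.

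The 5 cells with 5 members had Elf3, at 195 to 1048 CPM, and Krt42 in common, each with at least 5 reads. Otherwise the cells differed: Gjb5 had at least 5 reads in 4 of them, Tfap2c in 3, Krt19 in 3, Krt8 and Krt18 in 2 each and Elf5 in 1. Each also had 6 to 8 of the 8 listed naive pluripotency genes at 5 reads, with Zfp42 at 2295 to 4759 CPM, and 5 to 7 of the 8 epiblast genes. Epithelial genes of the list were found too (9 to 12 of 23), among them Spint2, a protease inhibitor, and Lgals3, a galectin. Of the 22 endoderm genes each had 1 to 4, and of the 13 mesoderm genes 0. Of the trophoblast list, 2 of the 5 cells had 0 of 15 genes, and the others had 2 or 3, Eomes among them in each case.

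Krt8 and Krt18 were found in the same cells in part. Over the 244 kept day 9 cells, with values centred on genotype and batch, their log2(CPM + 1) had a Pearson r of 0.37, the highest of the 21 pairs among the 7 members with enough reads. Both had at least 5 reads in 4 WT cells (12 had Krt8 and 10 Krt18), in 5 3AKO cells (6 and 21) and in 3 3BKO cells (6 and 9). For Krt42 and Gjb5 r was 0.29 and for Tfap2c and Elf3 0.24. Within WT, 3AKO and 3BKO cells, without centring, r was 0.49, 0.36 and 0.13 for Krt42 and Gjb5. It was 0.19, 0.47 and 0.04 for Tfap2c and Elf3, and 0.34, 0.42 and 0.35 for Krt8 and Krt18. These cells share plates, depth and many zeros, so the values are a description.

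Among 9022 genes found in at least 20% of these cells, those most like Krt8 were Tmc4 (r = 0.36), Ctsc (0.34), Anxa5 (0.27), Zfp280b (0.27) and Acaa1a (0.27). For Krt18 they were Cldn6 (0.28), Arhgef12 (0.27), Zfp623 (0.26), 1700017B05Rik (0.25) and Dab2ip (0.24). Elf3, Krt19 and Krt42 were looked at after these values were seen. Elf3 was most like the naive pluripotency gene Zfp42 (0.42), with 0.43 in WT and 0.50 in 3AKO cells but -0.08 in 3BKO cells, where all 67 cells had a Zfp42 read. Krt19 was most like P4ha2 (0.36) and Krt42 most like Fam25c (0.33).

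Other trophoblast genes were few. Of the 15 listed, Tpbpa was at 0 in all cells, and at day 9 13 had a read in WT, 9 in 3AKO and 10 in 3BKO, for a summed level of 108, 70.8 and 130 CPM. The most abundant was the imprinted growth regulator Phlda2, at 84.9, 45.6 and 58.9 CPM. For 3BKO against WT, 4 of 11 counted genes were higher and 0 lower (4.71% and 6.84% of all counted genes were): Gata3 (10.8 against 0.345 CPM; 10 and 2 cells), Tead4 (6.74 against 2.01), Plet1 (2.61 against 0.144) and Gcm1 (10.6 against 2.18; 6 and 2 cells). A single 3BKO cell of batch 2, with 1151928 reads, held 7 of the 15 genes at 5 reads, among them Gcm1 (214 reads), Eomes (154), Gata3 (104) and Tead4 (88). It also had Elf3 (549), Tfap2c (201), Krt18 (65) and Gjb5 (39), with 0 reads of Cdx2, Elf5, Krt8, Krt19 and Krt42, and 6 of 8 naive genes. It was singled out after its values were seen. Without it 2 of 11 trophoblast genes were higher (Gata3 and Plet1), and their median log2 ratio went from 1.27 to 0.55. In 3AKO against WT, 1 of 10 was higher (Ascl2, 8.34 against 1.03 CPM), where 2.72% of all counted genes were. Eomes was at 12.1 CPM in WT, 9.10 in 3AKO, compared with 30.5 for 3BKO, with log2 ratios between 3BKO and WT of 0.01 in the first batch and 2.33 in the second.

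Junction and epithelial genes were present in every genotype. Of 23 listed, 21 were counted in 3BKO against WT, with 3 higher (Krt23, Grhl2 and Spint1) and 1 lower (the claudin Cldn3, at 2.01 against 14.6 CPM). Of all counted genes 4.71% were higher and 6.84% lower. The median log2 ratio of the list was 0.85. The protease inhibitor Spint2 was at 278, 268 and 502 CPM in the order WT, 3AKO, 3BKO. The adhesion gene Epcam was at 223 CPM in WT, 273 in 3AKO, compared with 397 for 3BKO, and E-cadherin (Cdh1) at 54.9, 67.7 and 123 CPM. In 3AKO against WT, 0 of 21 were higher and 1 lower (the desmosome gene Dsp, 2.47 against 18.3 CPM), with a median of 0.30. Of all counted genes 2.72% were higher and 3.03% lower in 3AKO. Krt7, a further simple keratin, was at 5.92 CPM in WT at day 9, with reads in 3 cells, and at 0 in both knockouts at that day. In the day 3 cells labelled 3BKO it was at 2.51 CPM, also with reads in 3 cells.

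Of 7 listed genes of stratified epithelium, 1 of 4 counted was higher in 3BKO than in WT (Krt17, 12.2 against 4.91 CPM), where 4.71% of all counted genes were. Krt10 led this list, at 10.8 to 13.9 CPM over the genotypes, and Krt14 reached at most 1.30 CPM and Krt5 0.345 CPM in a genotype.

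Of 8 listed genes of naive pluripotency, 4 were higher in 3BKO than in WT by at least 1 in both batches (Zfp42, Klf4, Klf5 and Tbx3) and 0 lower. Of all counted genes 4.71% were higher and 6.84% lower. The median log2 ratio of the list was 1.11. Esrrb, Nr0b1 and Tfcp2l1 did not pass (0.33, 0.74 and 0.99), and Klf2 stood at -0.14. In 3AKO against WT 0 of 8 were higher and 0 lower (2.72% and 3.03% of all counted genes were), with a median of -0.20. The summed level of the list was 1707 CPM in WT, 1102 in 3AKO, compared with 3808 for 3BKO, and all 8 genes had reads in each genotype. Zfp42 was at 963, 461 and 2269 CPM and Nr0b1, a nuclear receptor of ESCs, at 379, 306 and 635 CPM. Klf5, a factor shared by ESCs and epithelia, was at 79.3, 56.5 and 385 CPM. The part of these genes in the levels of Elf3, Tfap2c, Krt42 and Gjb5 was not tested.

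The remaining lists were of cell types that share Tfap2c or keratins or that EBs can hold. Of all counted genes, 4.71% were higher and 6.84% lower in 3BKO against WT, and 2.72% and 3.03% in 3AKO against WT. Of the primordial germ cell genes counted in 3BKO against WT, 1 of 6 was higher (Prdm14) and 1 lower (Nanos3), and in 3AKO 0 of 6 were higher and 0 lower. Of the mesoderm and streak genes, 1 of 5 was higher in 3BKO (Mesp2) and 0 lower, with a median log2 ratio of -1.76. The others stood below WT without passing in both batches: Fgf8 at -4.32, T at -1.85, Mesp1 at -1.76 and Kdr at -1.57. They had reads in few WT cells (5, 2, 3 and 1). In 3AKO against WT, 3 of 8 were higher (Mixl1, Cdx1 and Hoxb1) and 0 lower. Mixl1 had 422 reads in 2 cells of 3AKO, most of them in the cell with Foxa2 and T described above. Of the mesenchyme genes, 2 of 4 were lower in 3BKO (Col1a1 and Col3a1), and of the epiblast genes 1 of 8 was lower (Fgf5). In 3AKO 0 of 4 and 0 of 8 of these passed in either direction.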

How the data were processed

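Single-cell libraries were made with a modified Smart-seq2 protocol without molecular identifiers. The deposited values are raw read counts per gene and cell, which the authors obtained by trimming (Trim Galore 0.5.0, after FastQC 0.11.2), alignment to GRCm38.p6 (STAR 2.7.1a) and counting with featureCounts 1.6.1, with multi-mapped reads left out. The use of strand is not given in the sources used here. A further 26 columns (empty wells and mini-bulk libraries) had no sample and were not used. Reads of the kept cells were summed by genotype, day and batch and scaled to CPM; ratios are log2(CPM + 1). With 1 sample per group no test was possible, so a gene was called by size alone, at 1 or more in both batches. Cells were thinned to 50000 reads for shares of cells. Doublets were not called. Members and gene lists were chosen with earlier results of these data known; all 9 members are named, with the 5 genes most like Krt8 and Krt18 by Pearson r, the 2 listed genes of highest day 9 CPM per list and the leading listed genes of cells with 5 or more members. Further listed genes, named because they were called or lay in a single cell, were chosen after their values were seen. Exons and positions came from GENCODE annotation of GRCm38, and copies were searched with blastn 2.17.0. Scripts ran in Python 3.11.15 with numpy 2.4.6, pandas 2.3.3 and scipy 1.17.1; edgeR 4.0.16 and DESeq2 1.42.0 gave scaling factors only. Alternatives covered cell filter, scaling, pseudocount, thinning, detection, batch and the top cell. Some listed genes are not reported here.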

Additional observations from a re-analysis of the deposited data

Results flagged for a closer look

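For Krt8, Krt42 and Gjb5 the log2 ratios to WT of the 2 knockouts had opposite signs in both batches at day 9, though for Gjb5 the batch 1 levels of 3AKO and WT had overlapping counting intervals. Both contrasts share the WT cells, and the difference between them was not tested. Krt8 gave log2 ratios to WT of 0.47 (batch 1) and 0.92 (batch 2) for 3AKO, and -1.56 and -0.71 for 3BKO. Krt42 gave -1.51 and -4.07 for 3AKO, against 1.45 and 0.50 for 3BKO. Gjb5 gave -0.023 and -0.58 for 3AKO, against 1.46 and 0.56 for 3BKO. The 3AKO values of Krt42 and Gjb5 in batch 2 rest on 1 cell each. In WT, 1 cell held 52.5% of the Gjb5 reads in batch 1 and 85.4% in batch 2. For Krt8 in 3AKO, 1 cell held 65.6% of the reads in batch 1 and 82.7% in batch 2. Without the top cell of each group and batch, Krt8 in batch 1 was at 5.48 CPM in 3AKO and 7.62 CPM in WT. There 3AKO thus lay below WT, as 3BKO did (2.14 CPM). In batch 2 the levels were 1.51 CPM in 3AKO and 1.37 CPM in WT, so the opposite signs of Krt8 rest on single cells. With the same cells left out for Gjb5, both knockouts lay above WT in batch 1. The opposite signs of Gjb5 thus rest on single cells too.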

How the results depend on the processing

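No paired analysis was possible because each genotype and day is 1 sample and the labels give no replicate numbers. Among 336 alternative log2 ratios of single members, 327 kept their sign, and 0 of the called values turned. The other 9 include Krt19 in 3BKO against WT (1.98 without the top cell of each group, 1.09 in batch 2) and in 3AKO against WT (0.43 and 1.57). For 3AKO against WT (1 member higher, 1 lower), 0 were higher with the mean of single-cell CPM, with thinned cells or with a pseudocount of 10, and 2 were lower with batches pooled and 0 with detection in 20% of cells. For 3BKO against WT (2 higher, 0 lower), 1 was higher with mean CPM or thinned cells, 4 without the top cell of each group and batch or with batches pooled, and 1 was lower without the top cell of each group and 2 with batches pooled. For 3BKO against 3AKO (2 lower), 1 was lower with mean CPM, without top cells (either way) or with detection in 20%, and 0 with thinned cells or a pseudocount of 10. For WT over time (4 higher, 0 lower), 1 was lower with the stricter cell filter, totals without mitochondrial genes and Gm42418, TMM or DESeq2 factors or a pseudocount of 0.1, and 2 were higher with a pseudocount of 10 and 1 with detection in 20%. Member medians moved to 0.77 (3AKO against WT, batch 2), 0.56 (3BKO against WT, batch 2), 0.96 (3BKO against 3AKO, pseudocount 10), and for WT over time to 1.74 (mean CPM), 1.75 (thinned), 1.26 (pseudocount 10) and 1.49 (batch 2). Cells with many members numbered, at 4 members, 1 in WT and 1 in the cells labelled 3AKO at day 3, and 11 (WT), 6 (3AKO) and 18 (3BKO) at day 9; at 6 members 0 in 3BKO; with 2 reads 1 in 3AKO; with 10 reads 3 in 3BKO. The causes were not tested. Leaving out the top cell of each group and batch was chosen after seeing the data, as were the settings for cells with at least 3 members. Depth limits what a 0 can show, and batch 2 has few cells.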
